A study of Mus musculus with 23 samples.

Results

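The 35 genes described here mark vascular and lymphatic endothelial cells, the lining of blood and lymph vessels. They were chosen by gene symbol, and all 35 were found among the 35455 genes of one table of normalized counts and among the 35454 genes of a second. By role, 10 are junction, adhesion and surface proteins, 9 are receptors or their partners, 4 are transcription factors, 8 are enriched in capillaries or carry out capillary functions, 1 marks larger vessels, and 3 are used as lymphatic markers. The 23 libraries were RNA-seq of sorted mouse lung tumor cells. Each value below is the level of endothelial marker genes in cells that were selected for another identity. Which cells in a library made these transcripts was not tested.

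All mice, of a mixed C57BL/6, 129 and FVB background and 3 to 4 months old, carried 1 Braf CAT allele, from which Cre recombinase switches on BRAF V600E together with a red fluorescent protein, tdTomato. Cre came from an intranasal adenovirus with an Sftpc promoter, which restricts recombination to alveolar type 2 (AT2) cells, and tdTomato-positive cells were sorted from dissociated, perfused lungs; tdTomato is the only sort marker that the written methods name. The first table compared BRAF V600E tumors (CAT/+) with BRAF V600E/PI3Kα H1047R tumors (CAT/+; HR/+), in which Cre also activates mutant Pik3ca. It held 1 BRAF V600E library and 2 BRAF V600E/PI3Kα H1047R libraries at 2 weeks, 3 and 4 libraries at 6 weeks, and 2 and 2 libraries at 12 weeks. The second table compared tumors with 1 floxed Ppargc1a allele (CAT/+; PGC1a mutant/+, here PGC1α Het, 5 libraries) with tumors in which both copies were floxed (CAT/+; PGC1a mutant/mutant, PGC1α Null, 4 libraries), all at 12 weeks. Mice taken at 2 and 6 weeks received a higher titre of virus than mice taken at 12 weeks, so week and titre cannot be told apart between 6 and 12 weeks.

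Endothelial cells hold vessels together through VE-cadherin and claudin-5 at their junctions and PECAM1 on their surface, and they grow and survive under vascular endothelial growth factor (VEGF) and angiopoietin signals read by KDR, FLT1, TEK and TIE1. ETS factors such as ERG and SOX factors of the SOX7, SOX17 and SOX18 group maintain their identity. In the lung, the alveolar capillary bed holds a general capillary cell marked by genes such as Gpihbp1 and a larger, CAR4-positive aerocyte at the gas exchange surface, while VWF is richest in arteries and veins and PROX1, LYVE1 and FLT4 are used to mark lymphatic vessels. LYVE1 is also made by some macrophages, and FLT4 by some blood capillaries.

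Library totals were 1.64e+07 to 2.03e+07 normalized counts in the first table and 7.12e+06 to 9.16e+06 in the second, with 19803 to 21817 and 23661 to 26378 genes above 0. The tables were normalized separately, and no level is compared between them. In the first table Y-linked genes went against the labelled sex in both BRAF V600E/PI3Kα H1047R libraries of 12 weeks, the library labelled male reading as female and the reverse; genotype and week were the same, so the groups stand. The sexes were uneven: male mice gave 1 of 6 libraries without PI3Kα H1047R and 5 of 8 with it, by the labels, and at 2 weeks sex and genotype cannot be told apart. Ppargc1a itself was 75.8 to 561 normalized counts in the PGC1α Het libraries and 38.0 to 124 in the PGC1α Null libraries, ranges that overlap. AT2 markers were the most abundant of the cell type lists in every library of the second table, with a summed level of 450317 to 720396 normalized counts. This did not hold throughout the first table. In its 3 libraries with most endothelial transcripts, all with PI3Kα H1047R, the AT2 sum was 84095 to 322234. A list of other endothelial genes summed to 240936 to 366601 there, so AT2 markers were not the most abundant list in all 3. In the other 11 libraries they were, at 576226 or more against 205060 or less for that endothelial list.

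All 35 endothelial genes were present above 0 in each of the 14 libraries of the first table. Together they made up 0.123% to 1.28% of the library total in BRAF V600E tumors (median 0.524%, n = 6) and 0.237% to 2.07% in BRAF V600E/PI3Kα H1047R tumors (median 0.586%, n = 8). In the second table, which was normalized apart, their share was 0.018% to 0.0351% in PGC1α Het and 0.0436% to 0.0835% in PGC1α Null tumors. Every PGC1α Null library stood above every PGC1α Het library, while the BRAF V600E and BRAF V600E/PI3Kα H1047R ranges overlapped over most of their length. In bulk libraries a lower level can come from fewer endothelial cells or from less RNA per cell, and these cannot be told apart.

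**Figure D1:**
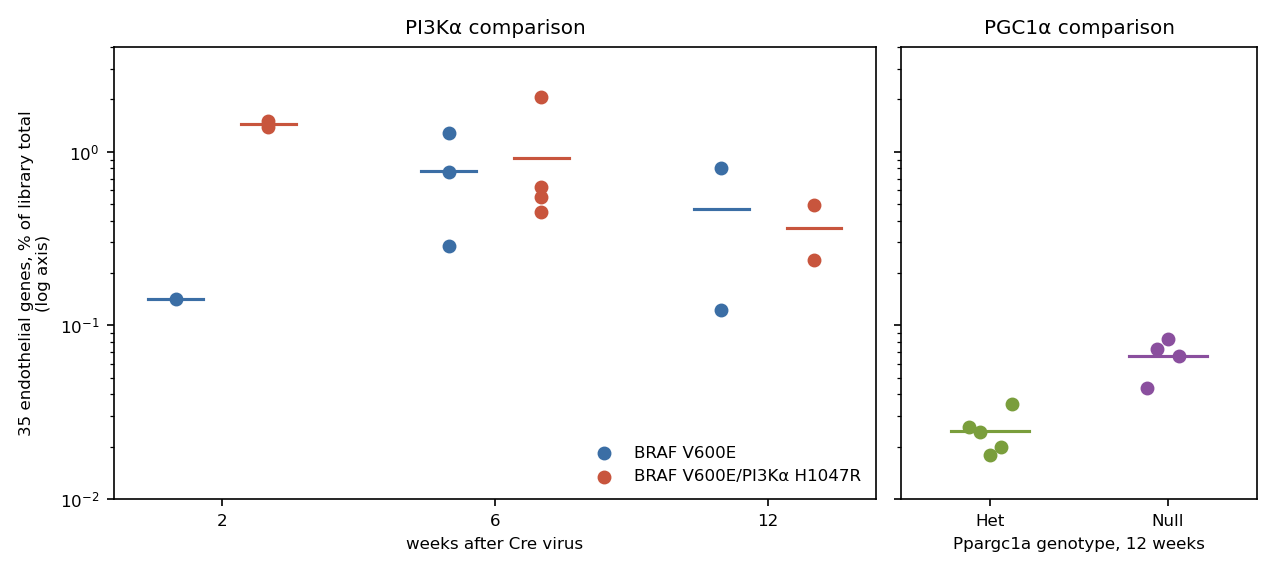
Share of each library's normalized counts held by the 35 endothelial genes (percent, log axis), by week in the PI3Kα comparison and by Ppargc1a genotype in the PGC1α comparison. Each point is 1 library; the BRAF V600E libraries spread from 0.123% to 1.28%, and the PGC1α Null libraries (0.0436% to 0.0835%) lie above all PGC1α Het libraries (0.018% to 0.0351%).

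Per kilobase of the longest coding transcript, the highest median level in the first table belonged to Calcrl, the receptor subunit for adrenomedullin, at 6200 normalized counts per kb (1307 to 26776 over the 14 libraries). Cdh5, which encodes VE-cadherin, followed at 1695 per kb, Ptprb, the endothelial receptor phosphatase that acts on TEK and VE-cadherin, at 1690 per kb, and Pecam1 at 1237 per kb. Nos3, endothelial nitric oxide synthase, and Prox1, the lymphatic master transcription factor, were the lowest at 7.2 and 3.72 per kb. In the second table the order was different, with Esam, an adhesion molecule of endothelial junctions that platelets also carry, highest at 124 per kb, followed by Flt1 at 69.9 and Pecam1 at 58.1 per kb. In the first table the range of Cdh5 (346 to 6106 per kb) held all of that of Pecam1 (367 to 4930 per kb), while Calcrl was above Cdh5 in each of the 14 libraries.

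**Figure D2:**
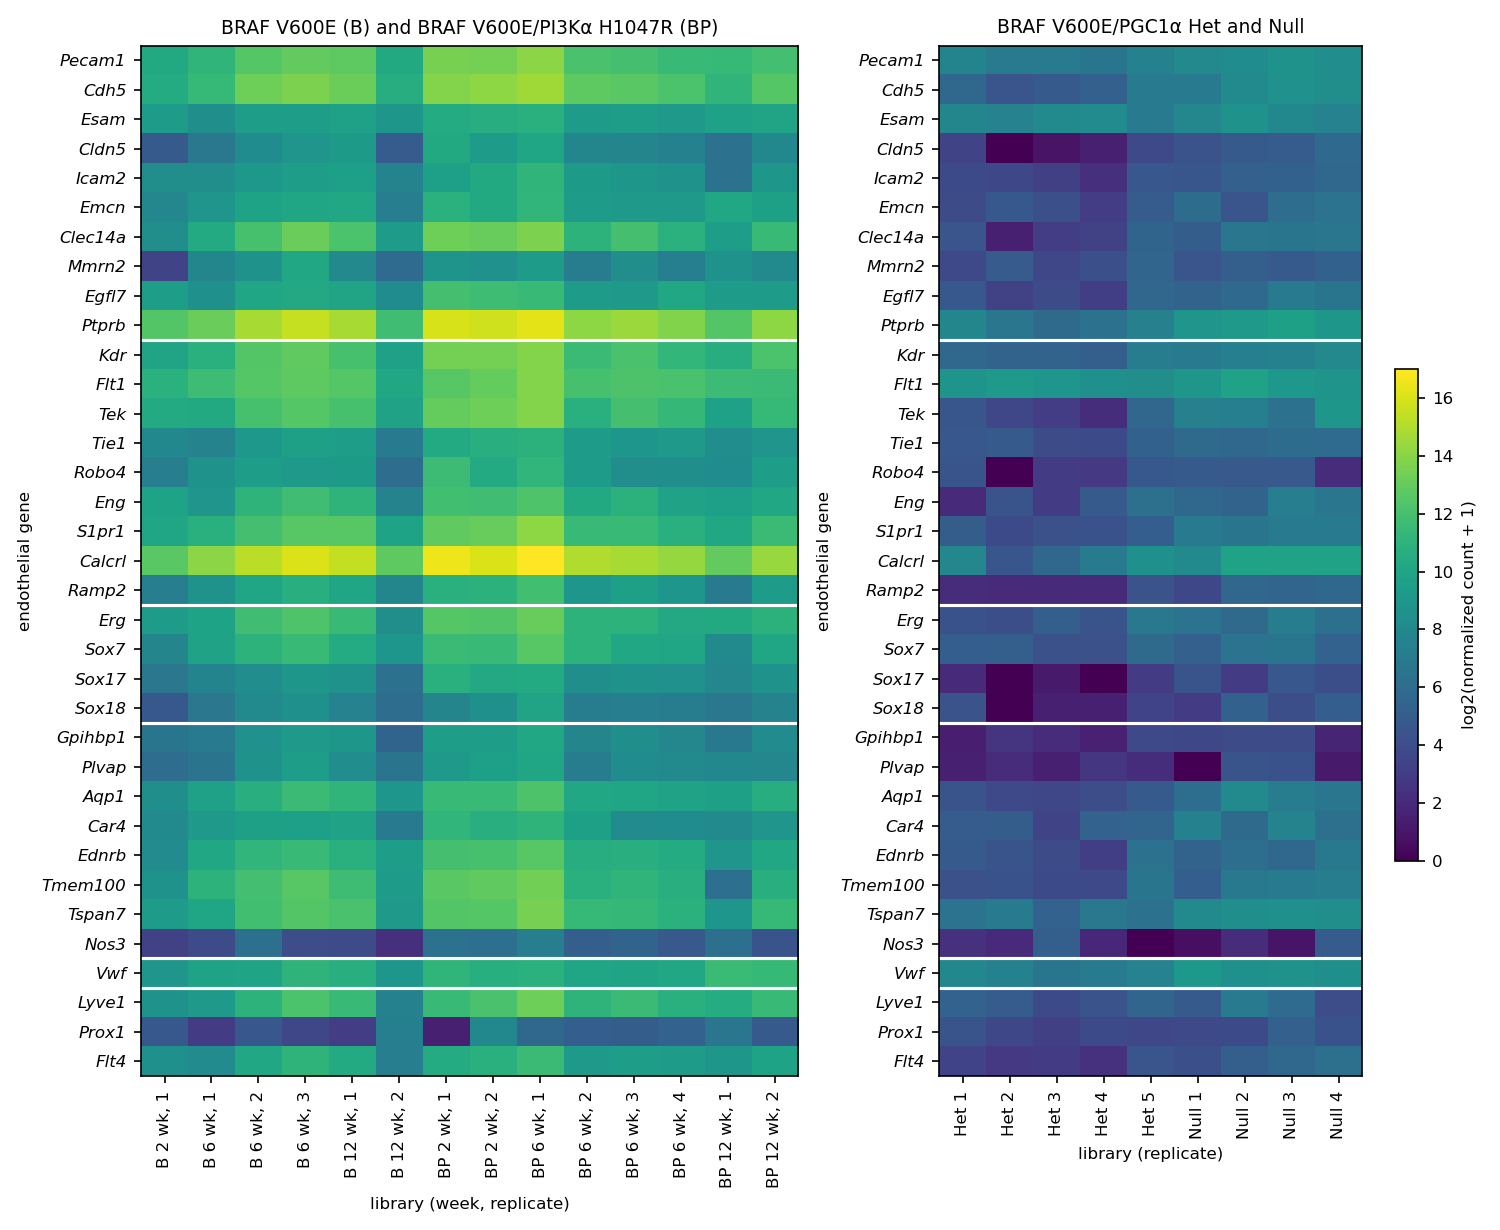
Level of each of the 35 endothelial genes, as log2(normalized count + 1), in every library of both tables, with genes in rows by role and libraries in columns by genotype, week and replicate. Most genes are bright or dark in the same libraries of the PI3Kα comparison, the brightest column being BRAF V600E/PI3Kα H1047R 6 week replicate 1, while Prox1 follows another order.

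The endothelial genes moved together from library to library. The median Pearson correlation of a gene with the mean of the other 34, on log2 values over the 14 libraries, was 0.943, and 25 of 35 genes were above 0.9. Kdr, Cdh5 and Pecam1 came closest to the common pattern, each at 0.989. Prox1 did not share it, at -0.22, and Vwf (0.60), Nos3 (0.70) and Mmrn2 (0.75), a protein of the endothelial matrix, shared it in part. Over the 9 libraries of the second table the median was 0.872, with 17 of 35 genes above 0.9; Cdh5 was again close to the mean at 0.988, but Esam stood at 0.02, Plvap at 0.27, Flt1 at 0.35 and Nos3 at -0.24. These correlations are descriptions over genes read from the same libraries.

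The common pattern did not follow genotype or week alone. Cdh5 was 1384 normalized counts in the BRAF V600E library of 2 weeks, 2694, 9810.5 and 13057 at 6 weeks, and 9458 and 1531 at 12 weeks. With PI3Kα H1047R it was 14951 and 17478 at 2 weeks, 24395, 7007, 6540.2 and 4731 at 6 weeks, and 2259.9 and 5992 at 12 weeks. Replicates of one genotype and week differed widely at 6 and 12 weeks, and 3 libraries were highest: both of 2 weeks with PI3Kα H1047R, and replicate 1 of 6 weeks with PI3Kα H1047R, which alone held the highest value of 27 of the 35 genes. BRAF V600E 12 week replicate 2 held the lowest value of 17 genes and the only BRAF V600E library of 2 weeks the lowest of 11.

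By role, the values in single libraries are given in that order of weeks, first with BRAF V600E and then with PI3Kα H1047R. Pecam1, a surface adhesion molecule, was 1286 normalized counts at 2 weeks, 2208, 5875 and 7729.7 at 6 weeks, and 7019.8 and 1264 at 12 weeks, and with PI3Kα H1047R it was 11832 and 11179, then 16965, 4511, 4000.4 and 2755, then 2642 and 3932. Cldn5 was 27.4 normalized counts at 2 weeks, 111, 305 and 457 at 6 weeks, and 614 and 29.2 at 12 weeks, and with PI3Kα H1047R 1305 and 669, then 1061, 225, 215 and 180.4, then 81.5 and 243. Cldn5 spanned more of the log2 scale than Pecam1, being lowest in the BRAF V600E library of 2 weeks and highest in a PI3Kα H1047R library of the same week.

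Among receptors, Kdr was 961 normalized counts at 2 weeks, 1752, 5724 and 7438 at 6 weeks, and 4240.0 and 855 at 12 weeks with BRAF V600E, and 11268 and 10983, then 14765, 3132, 4404 and 2434, then 1536 and 4558 with PI3Kα H1047R. Flt1, a decoy and signalling receptor for VEGF, was 1872 normalized counts at 2 weeks, 3339.9, 5812 and 7023 at 6 weeks, and 5814 and 1096 at 12 weeks, against 6209 and 8019, then 14606, 4159, 4823 and 4537, then 3262 and 3115. Both receptors had their highest library in the same PI3Kα H1047R replicate of 6 weeks and their lowest in BRAF V600E 12 week replicate 2, and Flt1 ran over a narrower range. Tek was 1365 normalized counts at 2 weeks, 1273, 4213 and 5885 at 6 weeks, and 4257 and 901 at 12 weeks, against 8112 and 9860.2, then 14679, 1738, 4132 and 2588, then 830.3 and 2669. The values of Calcrl were 6383 normalized counts at 2 weeks, 16749, 39094 and 70117 at 6 weeks, and 43871 and 7066 at 12 weeks, against 95240.0 and 67779, then 130719, 31995, 28540.0 and 20137, then 7802 and 21011. Tek was lowest in a PI3Kα H1047R library, and Calcrl in the BRAF V600E library of 2 weeks.

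The ETS factor gene Erg was 642 normalized counts at 2 weeks, 944, 3493 and 5091 at 6 weeks, and 2983 and 333 at 12 weeks with BRAF V600E, and 5969 and 5374, then 8506, 2038, 2078 and 1241, then 1291 and 1945 with PI3Kα H1047R. Sox17 was 106 normalized counts at 2 weeks, 199.6, 323 and 504 at 6 weeks, and 400.4 and 78.6 at 12 weeks, against 1747 and 1208, then 1359, 349, 404 and 385, then 238 and 399. Erg followed the junction genes from library to library, while Sox17 was highest in PI3Kα H1047R replicate 1 of 2 weeks, ahead of replicate 1 of 6 weeks.

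Of the general capillary genes, Gpihbp1 was 98.6 normalized counts at 2 weeks, 135, 394 and 596 at 6 weeks, and 515 and 43.5 at 12 weeks with BRAF V600E, and 715 and 705, then 1111, 209, 352 and 228, then 117 and 298 with PI3Kα H1047R. Plvap was 67.7 normalized counts at 2 weeks, 92.5, 429 and 697 at 6 weeks, and 328 and 92.5 at 12 weeks, against 589 and 759, then 1009.7, 147, 310.1 and 263, then 246 and 230.3. Aqp1 was 348 normalized counts at 2 weeks, 852, 1617 and 3047 at 6 weeks, and 2277 and 476 at 12 weeks, against 2841 and 2848, then 4989, 1125, 1029 and 890.3, then 819 and 1553. In all 3, BRAF V600E replicates 2 and 3 of 6 weeks were above both PI3Kα H1047R libraries of 12 weeks. The aerocyte marker Car4 was 281 normalized counts at 2 weeks, 592, 823 and 755 at 6 weeks, and 884 and 124 at 12 weeks, against 2282 and 1625, then 2178, 799, 288 and 314, then 285 and 456. Ednrb was 299 normalized counts at 2 weeks, 1182, 2334 and 2944 at 6 weeks, and 1747 and 699 at 12 weeks, against 4088 and 4248, then 6265, 1548, 1657 and 1410.3, then 475 and 1196. Car4 was highest in a PI3Kα H1047R library of 2 weeks and Ednrb in replicate 1 of 6 weeks.

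Nos3 was 8.97 normalized counts at 2 weeks, 13.8, 77.3 and 15.3 at 6 weeks, and 14.3 and 3.93 at 12 weeks with BRAF V600E, and 78.9 and 74, then 153, 34, 42.8 and 25.6, then 76 and 20.4 with PI3Kα H1047R. Tmem100 was 430.4 normalized counts at 2 weeks, 2069, 3806 and 6035 at 6 weeks, and 3399.8 and 669 at 12 weeks, against 6326 and 7246, then 10610.5, 1786, 2277 and 1593, then 71.9 and 1674. Both genes were highest in PI3Kα H1047R replicate 1 of 6 weeks, but in 12 week replicate 1 of that genotype Tmem100 was at its lowest while Nos3 was not. Vwf was 464 normalized counts at 2 weeks, 917, 960.1 and 2120.2 at 6 weeks, and 1588 and 491 at 12 weeks, against 2229 and 1702, then 1846, 1091, 989 and 1098, then 3137 and 2673. It varied less than most of the 35 and was highest in both PI3Kα H1047R libraries of 12 weeks.

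The lymphatic markers Lyve1 and Flt4 followed the common pattern and Prox1 did not. Lyve1 was 425 normalized counts at 2 weeks, 557, 2045 and 4614 at 6 weeks, and 2800.5 and 175 at 12 weeks with BRAF V600E, and 2814 and 4391, then 9549, 2101, 3069 and 1760.1, then 1489 and 2968 with PI3Kα H1047R. Flt4 was 378 normalized counts at 2 weeks, 295, 1145 and 2167 at 6 weeks, and 1350.2 and 153 at 12 weeks, against 1413 and 1784, then 3096, 557, 721 and 635, then 512 and 921. These markers were high in the libraries with most Pecam1 and Cdh5. Prox1 was 25.2 normalized counts at 2 weeks, 7.23, 23.6 and 11.1 at 6 weeks, and 7.5 and 161 at 12 weeks, against 1.84 and 246, then 53.2, 32.5, 31.5 and 40, then 101 and 27.4, so that its lowest and highest libraries of all 14 were the PI3Kα H1047R pair of 2 weeks.

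Promoter sequence is shown for 3 VEGF and angiopoietin pathway receptors that moved together in the first table, Kdr, Flt1 and Tie1; in the second Flt1 followed the other endothelial genes less closely. Each sequence is the 250 bases before the gene's start, 5′ to 3′ on the strand of the gene (the minus strand in all 3), from RefSeq annotation of GRCm38.p6. Capitals mark matches on either strand to GGAAGT or CCGGAA, core letters bound by ETS factors such as ERG. Tek, a receptor of the same pathways that also moved with them in the first table, had a matched promoter with 0 such matches. It is not shown.
Kdr (chr5:75978456-75978705): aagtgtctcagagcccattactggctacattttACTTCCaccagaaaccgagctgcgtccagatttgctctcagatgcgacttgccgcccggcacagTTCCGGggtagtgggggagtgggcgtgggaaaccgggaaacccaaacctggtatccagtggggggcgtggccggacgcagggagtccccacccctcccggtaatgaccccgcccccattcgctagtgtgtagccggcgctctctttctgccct
Flt1 (chr5:147726012-147726261): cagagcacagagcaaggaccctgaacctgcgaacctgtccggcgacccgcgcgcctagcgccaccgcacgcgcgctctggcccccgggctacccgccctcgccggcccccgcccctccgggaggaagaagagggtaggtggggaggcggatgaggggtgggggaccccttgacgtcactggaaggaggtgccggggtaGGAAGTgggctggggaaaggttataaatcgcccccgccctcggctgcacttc
Tie1 (chr4:118489850-118490099): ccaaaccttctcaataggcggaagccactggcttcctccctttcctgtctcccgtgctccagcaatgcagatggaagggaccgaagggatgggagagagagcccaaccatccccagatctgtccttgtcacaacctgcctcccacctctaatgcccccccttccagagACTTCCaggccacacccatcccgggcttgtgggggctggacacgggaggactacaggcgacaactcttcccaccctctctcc
A promoter was matched for 18 of the 35 genes. Within 300 bases (250 before to 50 after the start), 7 of those 18 (38.9%) held 1 or more of these motifs, against 35.5% of 27025 genes with a promoter, so the share lies near that of all genes. AACAAT, letters bound by SOX factors, occurred on either strand in 4 of 18 (22.2%) against 12.2%; neither set of letters overlaps the other.

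The first comparison asked whether PI3Kα H1047R changed the level of endothelial transcripts in libraries of BRAF V600E tumor cells, over all weeks. All 35 genes had a higher mean log2 level with PI3Kα H1047R, by a median of 0.85 on the log2 scale against 0.017 over the 17558 genes tested, but none passed an adjusted p of 0.05 in limma, where 0.0228% of all genes did. At an unadjusted p under 0.05, 6 of 35 were higher (Nos3, Sox17, Lyve1, Tie1, Vwf and Esam) and none lower, against 3.46% of all genes higher. No gene had groups that did not overlap, against 0.0854% of all genes higher in that way and 0.125% lower. The shift was shared in direction, and for no single gene did it exceed the spread between mice of all weeks together after adjustment. Leaving out 1 library moved the 6 to between 2 (without BRAF V600E 6 week replicate 1 or 12 week replicate 2, with 5.36% and 5.42% of all genes in either direction) and 11 (without BRAF V600E 6 week replicate 3, with 7.97%) and the median to between 0.56 and 1.09. With sex as a factor, the sexes being uneven between the genotypes, the 6 became 1. In the same comparison the marker lists of other cell types had these values. AT2 genes were lower in 12 of 12 (median -0.95, 3 at an unadjusted p under 0.05), mural genes (pericytes and smooth muscle) were higher in 11 of 12 (0.63) and macrophage genes in 10 of 11 (0.89). Their part in the endothelial values was not tested.

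Among junction, adhesion and surface genes, 10 of 10 were higher, by a median of 0.91 (log2), and 1 had an unadjusted p under 0.05. That was Esam, at 357, 703 and 855 normalized counts (lowest, median and highest) with BRAF V600E and 569, 914 and 1798 with PI3Kα H1047R, a log2 difference of 0.65 ± 0.29 (SE, limma adjusted p = 0.705). Cldn5, the tight junction claudin of endothelium, ranged from 27.4 to 614 (median 208) and from 81.5 to 1305 (median 234), a log2 difference of 1.24. Icam2, a ligand for leukocyte integrins, had the smallest difference of this group at 0.40. It ran from 194 to 786 (median 438) without and from 78.9 to 2242 (median 559) with PI3Kα H1047R. In each of these genes the ranges overlapped and the medians lay closer than the extremes.

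The receptors gave the same picture, with 9 of 9 higher by a median of 0.75. Tie1, the partner of the angiopoietin receptor TEK, was 121 to 827 normalized counts with BRAF V600E and 325 to 1956 with PI3Kα H1047R, a log2 difference of 1.11 ± 0.50 (limma unadjusted p = 0.0412). Robo4, a guidance receptor that stabilizes vessels, had the largest receptor difference at 1.32. Ramp2, the partner of CALCRL, had the smallest at 0.58: 152 to 1671 against 134 to 3677, with medians of 752 and 725. For Ramp2 the median library was thus lower with PI3Kα H1047R while the mean log2 level was higher.

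All 4 transcription factors were higher, by a median of 0.87. Sox17, which marks arterial endothelium among its roles, ran from 78.6 to 504 normalized counts (median 261) and from 238 to 1747 (median 402), and 7 of 8 libraries with PI3Kα H1047R exceeded the BRAF V600E mean. Its log2 difference was 1.43 ± 0.53 (limma adjusted p = 0.605), and an exact permutation test of 8 against 6 libraries gave a two-sided p of 0.0366. Sox7 had the smallest difference of the 4, at 0.75.

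Capillary genes were higher in 8 of 8, by a median of 0.72, and held both extremes of the list. Nos3 was 3.93 to 77.3 normalized counts (median 14) with BRAF V600E and 20.4 to 153 (median 58.4) with PI3Kα H1047R. Its log2 difference of 1.77 ± 0.58 was the largest of the 35 (limma adjusted p = 0.511), and the exact permutation test gave a two-sided p of 0.0153. These are low levels, and exons of Nos3 share up to 294 bases with Atg9b on the opposite strand, so the reads cannot be told apart where the counting took no account of strand. Tmem100, a BMP-dependent membrane protein of lung endothelium, had the smallest difference at 0.15 ± 0.94, with 430.4 to 6035 normalized counts against 71.9 to 10610.5. The lowest of those, in BRAF V600E/PI3Kα H1047R 12 week replicate 1, lay far below the other 7 libraries of its genotype (1593 or more).

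Vwf and Lyve1 completed the genes with an unadjusted p under 0.05. Vwf, von Willebrand factor, the marker of larger vessels, was 464 to 2120.2 normalized counts (median 939) and 989 to 3137 (median 1774), a log2 difference of 0.86 ± 0.37 (limma adjusted p = 0.684). Lyve1, the hyaluronan receptor of lymphatic endothelium and of some macrophages, was 175 to 4614 (median 1301) and 1489 to 9549 (median 2891), a difference of 1.54 ± 0.64 (limma adjusted p = 0.677). The other lymphatic markers, Flt4 (the VEGF-C receptor) at 0.67 and Prox1 at 0.87, had unadjusted p values above 0.05. A list of 11 macrophage genes tested was also higher, in 10 of 11 genes, by a median of 0.89, with 3 at an unadjusted p under 0.05; its part in the Lyve1 value was not tested.

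**Figure D3:**
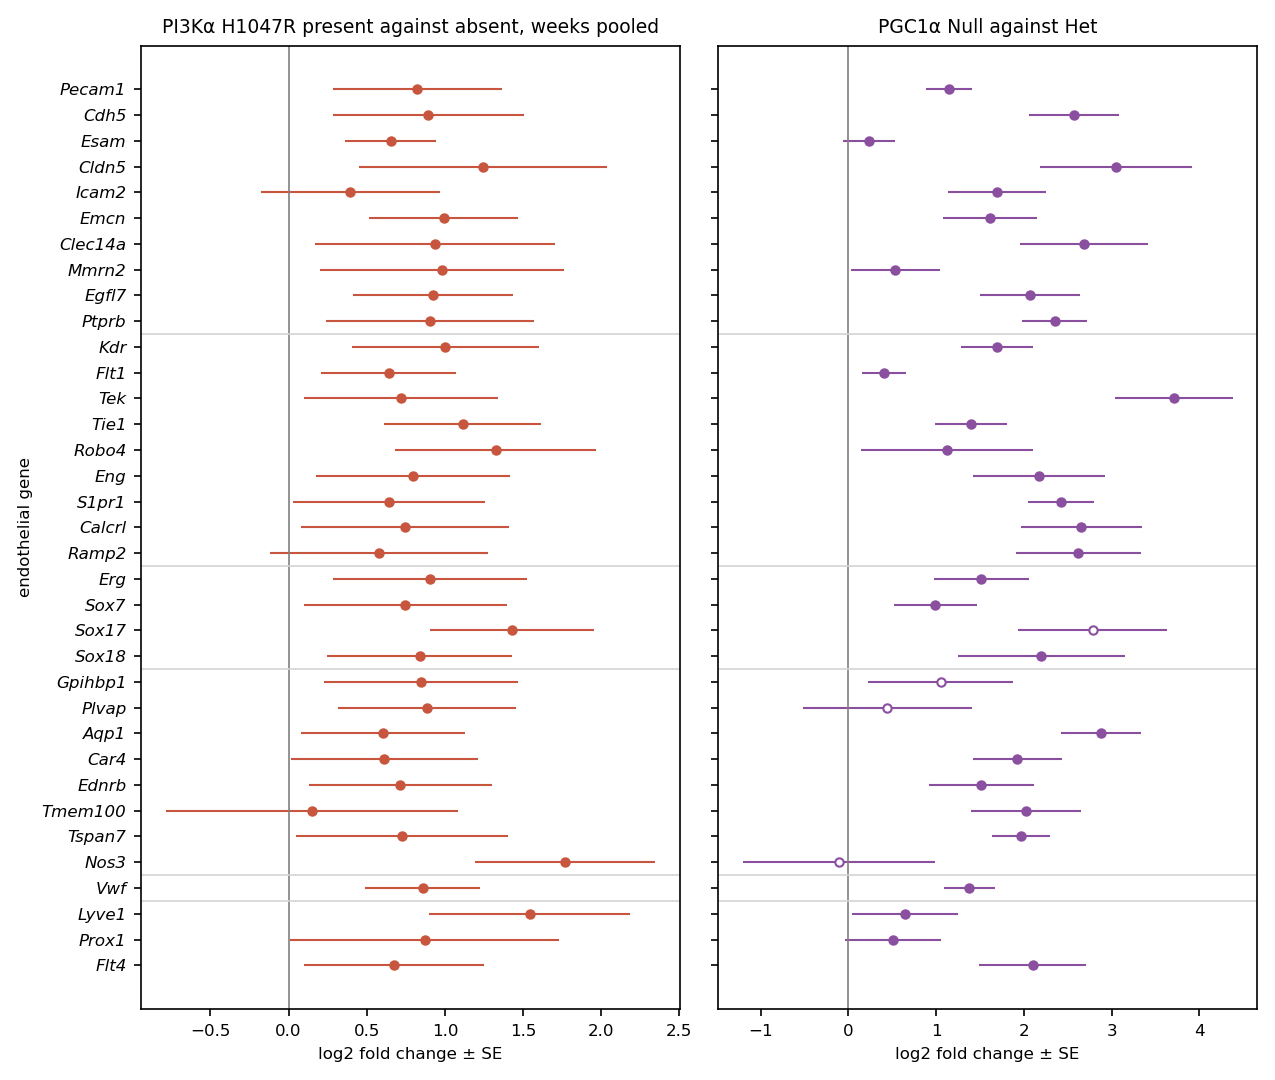
log2 fold change with its standard error for each of the 35 endothelial genes, with PI3Kα H1047R against without it over all weeks (left) and PGC1α Null against Het (right). Open circles are genes under the level filter in the PGC1α comparison, from the fit with no filter; on the left all 35 points lie above 0, and on the right Tek is farthest to the right at 3.71.

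At 2 weeks the difference was large. Pecam1 was 1286 normalized counts in the single BRAF V600E library and 11832 and 11179 in the BRAF V600E/PI3Kα H1047R libraries. Mmrn2 was 10.3 against 450.0 and 385, and Cldn5 was 27.4 against 1305 and 669. In 34 of 35 genes both libraries with PI3Kα H1047R exceeded the BRAF V600E library, against 36.6% of all genes. Prox1 was the exception, at 25.2 against 1.84 and 246.

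The median log2 difference at 2 weeks was 3.14, from 0.02 for Prox1 to 5.21 for Mmrn2. By limma 28 of 35 genes were higher at an unadjusted p under 0.05, against 6.93% of all genes, and none at an adjusted p of 0.05, against 0.0171% of all genes. The lowest adjusted p was that of Mmrn2, at 0.0898. Transcription factors (median 3.62) and junction genes (3.30) had the largest class medians, followed by capillary genes (3.11) and receptors (2.95), while the lymphatic markers had a median of 2.07. Without BRAF V600E/PI3Kα H1047R 6 week replicate 1, which enters through the estimate of spread, 3 genes passed in limma, Ednrb (adjusted p = 0.0236), Mmrn2 (0.0323) and Sox17 (0.0479), where 1.53% of all genes did. Leaving out either library with PI3Kα H1047R left 16 or 17 genes at an unadjusted p under 0.05, against 9.77% and 15.2% of all genes in either direction. With 1 library on the BRAF V600E side, mouse and genotype cannot be told apart. In the same comparison all 12 AT2 genes were lower, by a median of -2.29 with 11 at an unadjusted p under 0.05. The macrophage list was higher in 11 of 11 genes, by a median of 2.33, and the mural list in 11 of 12, by a median of 1.76. The fibroblast list was higher in 12 of 12 (median 1.10) and the AT1 list in 9 of 10 (0.65). The general epithelial list was lower in 5 of 6 (-1.49). Their part in the endothelial values was not tested.

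At 6 weeks, the week with the most libraries, the endothelial genes did not separate the genotypes. The median log2 difference was 0.21, with 29 genes higher and 6 lower, and no gene reached an unadjusted p of 0.05 in limma, against 4.24% of all genes; at an adjusted p of 0.05 the share of all genes was 0.0228%. Leaving out replicate 1 with PI3Kα H1047R turned the median to -0.33, and leaving out replicate 1 of BRAF V600E turned it to -0.32. Kdr, the main VEGF receptor, shows the spread: it was 1752, 5724 and 7438 normalized counts without and 14765, 3132, 4404 and 2434 with PI3Kα H1047R. Leaving aside the highest library, replicates 2 and 3 of BRAF V600E were above the other PI3Kα H1047R libraries and replicate 1 was below them.

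The largest differences at 6 weeks were Prox1 at 1.55, Nos3 at 0.91 and Lyve1 at 0.89. Prox1 was 7.23, 23.6 and 11.1 normalized counts with BRAF V600E and 53.2, 32.5, 31.5 and 40 with PI3Kα H1047R (14 ± 8.55 and 39.3 ± 10, mean ± SD, n = 3 and 4). All 4 libraries exceeded all 3, and Prox1 was the only 1 of the 35 whose groups did not overlap, against 2.63% of all genes higher in that way. The two-sided exact permutation p was 0.0286, the smallest that 4 against 3 libraries allow, and the limma adjusted p was 1. The 3 lowest were Mmrn2 at -0.80, Tmem100 at -0.33 and Car4, the aerocyte carbonic anhydrase, at -0.18. Exons of Prox1 share up to 133 bases with the antisense gene Prox1os.

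At 12 weeks, with all libraries, the share of endothelial genes at an unadjusted p under 0.05 was not above that of all genes; in some fits with 1 library left out it was. Vwf was 1588 and 491 normalized counts with BRAF V600E and 3137 and 2673 with PI3Kα H1047R, a log2 difference of 1.71 ± 0.54 (limma unadjusted p = 0.00821, adjusted p = 1), and it was the only gene of the 35 at an unadjusted p under 0.05, against 3.76% of all genes. Vwf, Nos3 (14.3 and 3.93 against 76.0 and 20.4) and Mmrn2 (260.3 and 59.3 against 426 and 286) had both libraries above both. That held for 15.4% of all genes. No gene of the 35 had both below, against 13.8% of all genes. None of the 35 passed an adjusted p of 0.05, against 0.0114% of all genes. Over all 35, 24 were higher and 11 lower, with a median of 0.31 and the lowest value at Tmem100 (-2.11); without BRAF V600E replicate 1 the median was 1.35 with 8 genes at an unadjusted p under 0.05 (4.76% of all genes), without BRAF V600E replicate 2 it was -1.01, with no gene higher and 1 lower at an unadjusted p under 0.05 (4.09% of all genes) and Vwf at 0.87, and without replicate 2 of PI3Kα H1047R it was -0.17 with 4 genes, 2 in each direction (6.27% of all genes).

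**Figure D4:**
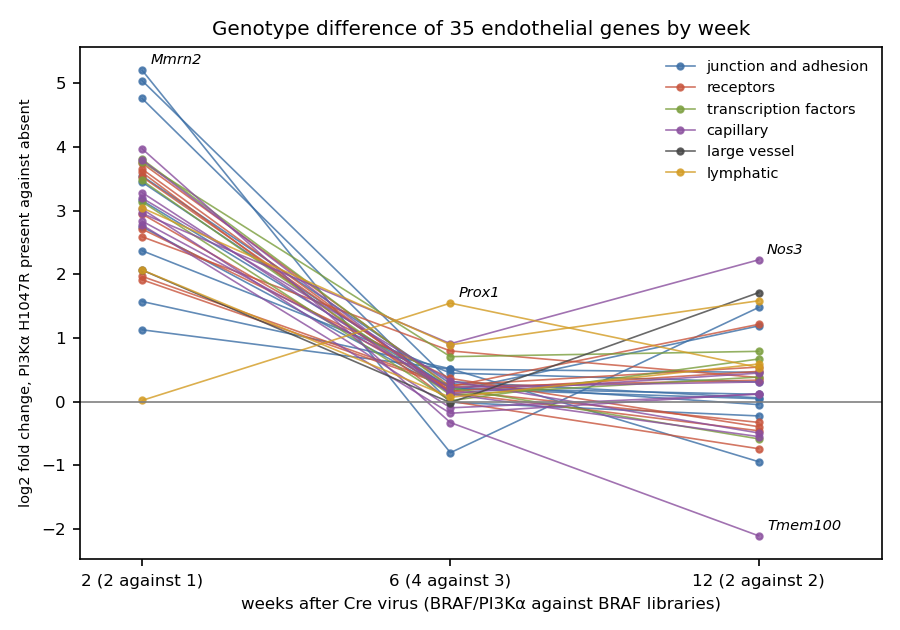
log2 fold change with PI3Kα H1047R against without it at 2, 6 and 12 weeks, with 1 line for each of the 35 endothelial genes, coloured by role. Lines start at a median of 3.14 at 2 weeks, where 2 libraries are set against 1, and reach medians of 0.21 and 0.31 at 6 and 12 weeks, with Tmem100 lowest at 12 weeks.

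Whether the difference itself depended on week was tested as an interaction. Between 2 and 6 weeks it was smaller at 6 weeks in 34 of 35 genes, by a median of 2.96 log2 units, and 18 had an unadjusted p under 0.05 in limma, against 4.66% of all genes lower in this way, with none at an adjusted p of 0.05 (0% of all genes). Leaving out 1 library moved the 18 to between 5 and 26, the lowest when replicate 1 of 2 weeks with PI3Kα H1047R was dropped (6.76% of all genes in either direction) and the highest when replicate 1 of 6 weeks was (14.4%). The comparison rests on the single BRAF V600E library of 2 weeks. In this interaction all 12 AT2 genes were higher, by a median of 2.10 with 7 at an unadjusted p under 0.05, while the macrophage list was lower in 11 of 11 genes (median -1.32) and the mural list in 11 of 12 (-1.46). Between 6 and 12 weeks the interaction had a median of -0.05, with 17 genes up and 18 down in sign, and Vwf (1.73) was the only gene with an unadjusted p under 0.05 in limma, against 2.87% of all genes; none passed an adjusted p of 0.05 (0% of all genes). Without BRAF V600E 12 week replicate 1 that median was 1.22 and without replicate 2 it was -1.31.

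Averaged over both genotypes, the 35 genes showed no common direction from 2 to 6 weeks and were mostly lower at 12 than at 6 weeks, with none past the adjusted threshold. From 2 to 6 weeks 19 genes were higher and 16 lower, by a median of 0.06, and none had an unadjusted p under 0.05 in limma, against 11.9% of all genes (0.0513% at an adjusted p of 0.05). Without the BRAF V600E library of 2 weeks the median was -0.97, and it was between -0.16 and -0.08 without BRAF V600E replicate 2 or 3 or PI3Kα H1047R replicate 1 of 6 weeks. From 6 to 12 weeks 32 genes were lower and 3 higher (Prox1 at 0.91, Vwf at 0.45 and Esam at 0.18), with a median of -0.92. By limma 1 gene had an unadjusted p under 0.05, against 5.31% of all genes, and none passed an adjusted p of 0.05 (0% of all genes). Without BRAF V600E 12 week replicate 1 that count was 19 (8.07% of all genes), with a median of -1.45, and without the BRAF V600E library of 2 weeks it was 5 (6.46% of all genes). In the same comparison the mural list was lower in 9 of 12 genes (median -0.98), the platelet list in 8 of 8 (-1.20), the fibroblast list in 10 of 12 (-0.70) and the AT1 list in 9 of 10 (-0.56). The AT2 list was higher in 12 of 12 genes (median 0.63) and the macrophage list in 8 of 11 (1.24). Their part in the endothelial values was not tested.

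To ask whether vessel subtypes shifted apart from the endothelial signal as a whole, each gene was set against the mean log2 level of Pecam1, Cdh5 and Kdr in the same library. These offsets are a description with no test, on the log2(normalized count + 1) scale. For 4 capillary genes, named after their values were seen, the median offset was nearly the same in both genotypes. Gpihbp1, which anchors lipoprotein lipase on capillaries, had medians of -3.97 with BRAF V600E and -4.09 with PI3Kα H1047R. Car4 had -2.98 and -3.03, Ednrb, the endothelin receptor of aerocytes, -1.60 and -1.59, and Plvap, the diaphragm protein of fenestrated capillaries, -4.06 and -4.13. The other 4 capillary genes were Tspan7, a tetraspanin, at -0.91 and -0.86, Tmem100 at -0.84 and -1.04, Aqp1 at -1.55 and -1.96, and Nos3 at -7.56 and -6.97.

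Extreme offsets gathered in single libraries. Over the 32 genes outside the reference mean, replicate 1 of 12 weeks with PI3Kα H1047R held the highest or lowest offset 16 times, the BRAF V600E library of 2 weeks 12 times, BRAF V600E 12 week replicate 2 held it 9 times, and replicate 2 of 12 weeks with PI3Kα H1047R never. Only Calcrl, Tmem100 and Vwf lay outside the range of the other 12 libraries in both 12 week PI3Kα H1047R libraries. Genes outside it in replicate 1 alone included Emcn, at -0.91 against -3.30 to -2.26, Nos3, at -4.76 against -9.12 to -6.46, and Tspan7, at -2.09 against -1.14 to -0.59, named after their values were seen. Calcrl was 1.90 and 2.14 against 2.39 to 2.95. The offset of Vwf was 0.58 and -0.83 in the BRAF V600E/PI3Kα H1047R libraries of 12 weeks and -3.31 to -1.25 in the other 12 libraries. The offset of Tmem100 was -4.84 in replicate 1 of the same group, against -1.51 to -0.08 in the other 13 libraries. Lyve1 had median offsets of -1.62 with BRAF V600E and -0.89 with PI3Kα H1047R, Flt4 of -2.44 and -2.66, and Prox1 of -8.09 and -7.17, so the medians of Lyve1 and Prox1 were higher with PI3Kα H1047R and that of Flt4 was lower. The range of Prox1, from -12.1 to -2.87, was too wide to place it.

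Other cell types were read from the same libraries by marker lists. The 3 libraries with most endothelial transcripts also held more mural cell transcripts, at summed levels of 8263 to 9914 normalized counts against 1121 to 5008 in the other 11, and more of the fibroblast list, at 96349 to 150879 against 13960 to 66992. The alveolar type 1 (AT1) list was 147785 to 183078 against 33086 to 114373. In the opposite direction, the AT2 list was 84095 to 322234 in these 3 libraries against 576226 to 1634430 in the other 11, and the general epithelial list was 29872 to 30662 against 34357 to 58877. Macrophage, leukocyte, platelet and mesothelial sums overlapped between the 2 sets. The part of these cell types in the endothelial differences was not tested.

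**Figure D5:**
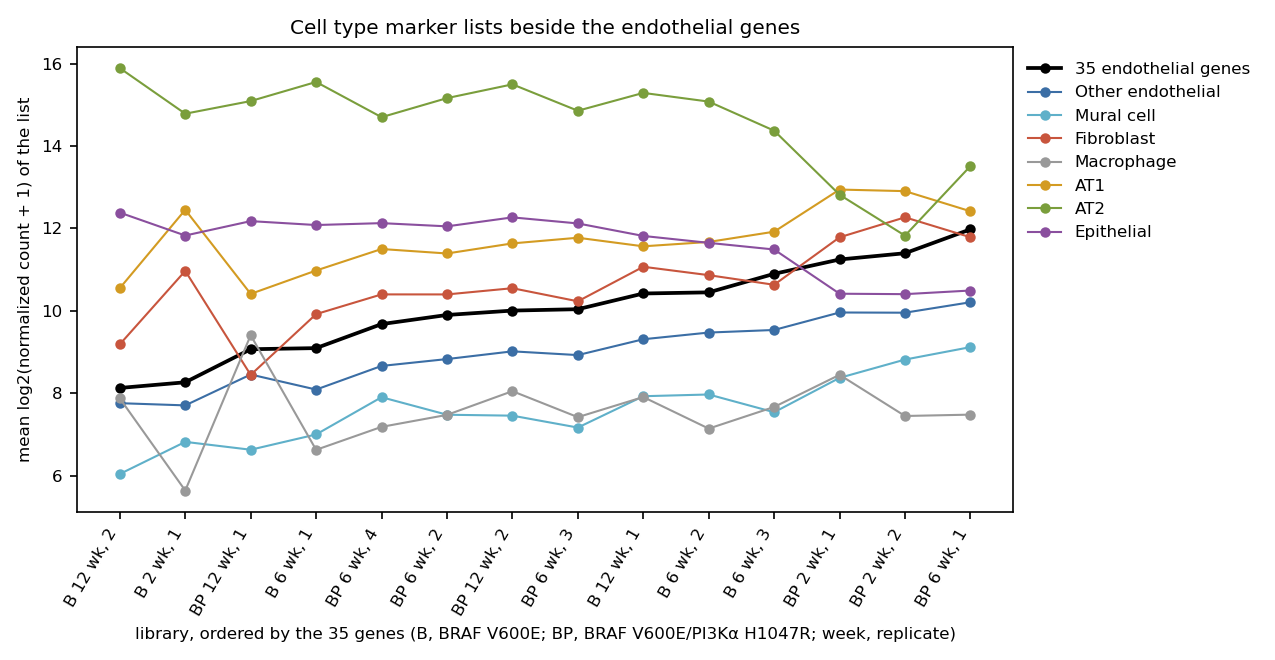
Mean log2(normalized count + 1) of the 35 endothelial genes and of the other cell type marker lists in the 14 libraries of the PI3Kα comparison, ordered by the level of the endothelial genes. Mural and fibroblast lines are highest in the 3 libraries at the end with most endothelial transcripts, where the AT2 line is lowest.

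Beyond the 35, a list of 44 other endothelial genes (43 tested) showed the same direction, with 39 higher and 4 lower with PI3Kα H1047R over all weeks, a median of 0.68 and 4 at an unadjusted p under 0.05. At 2 weeks 40 of these 43 were higher, by a median of 2.46. The ligands and coreceptors that act on endothelium, 12 tested, were 9 higher and 3 lower over all weeks, by a median of 0.22, with none at an unadjusted p under 0.05. These are made by many cell types.

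The second comparison asked whether loss of PGC1α changed the endothelial transcripts of BRAF V600E tumors at 12 weeks. Every endothelial gene that passed the filter on low levels had a higher mean with both Ppargc1a copies floxed, and the largest differences were those of Tek, Cldn5 and Aqp1. None passed an adjusted p of 0.05 in limma, where 0% of the 17424 genes tested did. The filter, a mean of 10 normalized counts, kept 31 of the 35 genes and left out Sox17, Gpihbp1, Plvap and Nos3; Cldn5, Ramp2, Sox18 and Flt4 passed it only through the PGC1α Null libraries. With no filter, 34 of 35 were higher, by a median of 1.70 on the log2 scale, and 25 had an unadjusted p under 0.05 in limma, all higher, against 2.79% of 33095 genes. In 11 of the 35 every PGC1α Null library exceeded every PGC1α Het library, against 0.798% of those 33095 genes.

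Among junction and surface genes, Pecam1 was 199.9, 130.4, 134, 98.7 and 173 normalized counts in PGC1α Het and 254, 300.4, 409.5 and 327 in PGC1α Null libraries. Its log2 difference was 1.15 ± 0.26 (limma adjusted p = 0.476), and its two-sided exact permutation p of 0.00794 was the smallest that 4 against 5 libraries allow. Cdh5 was 49.6, 20.9, 27.0, 35.4 and 135 against 125, 268, 379 and 343, a difference of 2.57 ± 0.51 (limma adjusted p = 0.299), with the Het library of replicate 5 inside the Null range. Ptprb, at 2.35 ± 0.37, again separated all libraries. Cldn5, at 10.2, 0, 0.903, 1.8 and 12.5 normalized counts against 19.3, 27.5, 30.1 and 54.4, had the largest difference of this group at 3.05 ± 0.87, from low levels. Esam, at 136 to 293 against 181 to 398, was the smallest of the 31 at 0.24.

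Among receptors, Tek, the angiopoietin receptor, had the largest difference of all. It was 22.4, 11.4, 7.52, 3.76 and 47.5 normalized counts in PGC1α Het and 166, 158, 84.8 and 512 in PGC1α Null libraries, a log2 difference of 3.71 ± 0.67 (limma adjusted p = 0.216). S1pr1, the sphingosine 1-phosphate receptor that tightens junctions, was 31.6, 13.4, 17.7, 18.7 and 33.3 against 131, 95.8, 136 and 123, a difference of 2.42 ± 0.37 (limma adjusted p = 0.152). No PGC1α Het library of either receptor reached the lowest PGC1α Null library. Kdr was 51.6, 40.8, 41.7, 34.6 and 149 against 134, 162, 178 and 253, overlapping through Het replicate 5, a difference of 1.70. Flt1 was 443, 560.3, 482, 366 and 337 against 517, 869, 531 and 447, a difference of 0.41, and its groups overlapped in most libraries. Calcrl was 229.8, 22.3, 51.3, 121 and 369 against 264, 900.4, 897 and 883, a difference of 2.66.

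Erg was 18, 16, 34.5, 20.8 and 109 normalized counts in PGC1α Het and 89.6, 56.6, 147 and 76.2 in PGC1α Null libraries, a log2 difference of 1.52. Sox17, below the filter, was 3.2, 0, 1.32, 0 and 6.77 against 20, 6.97, 23.8 and 16.2. For Sox17 every PGC1α Null library exceeded every PGC1α Het library, at very low levels, while for Erg a Het library, replicate 5, exceeded 3 of the 4 Null libraries.

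Capillary and large vessel genes followed. Aqp1, the capillary water channel, was 19.9, 12.6, 11.2, 15.2 and 27.5 normalized counts in PGC1α Het and 68.4, 269, 139 and 101 in PGC1α Null libraries, a log2 difference of 2.88 ± 0.45 (limma adjusted p = 0.152). Vwf was 245, 178, 98.3, 129 and 185 against 545, 369, 432 and 347, a difference of 1.38 ± 0.29 (limma adjusted p = 0.338). Both genes, and the capillary genes Car4 and Tspan7, had every PGC1α Null library above every PGC1α Het library. Car4 was 30.5, 31.2, 10.1, 40.3 and 46.6 against 180.3, 58.5, 189 and 75.1. Ednrb was 26.9, 20.4, 14, 7.79 and 81.4 against 41.7, 68.4, 53.6 and 115, and Tmem100 17.4, 18.8, 12.9, 12.3 and 94.3 against 32.9, 116, 135 and 139. In both of these the Het library of replicate 5 lay inside the Null range. The 3 capillary genes below the filter were at low levels: Gpihbp1 was 1.72, 4.76, 3.57, 1.89 and 12.7 against 12.1, 14.7, 14.3 and 2.41, Plvap 1.87, 3.5, 1.82, 5.41 and 3.77 against 0, 20.1, 18 and 1.33, and Nos3 4.28, 3.1, 35, 2.66 and 0 against 0.651, 3.37, 0.951 and 29.7. All 3 overlapped between genotypes. 

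Of the lymphatic markers, Lyve1 was 38.8, 30, 13.4, 19.5 and 45.4 normalized counts in PGC1α Het and 26.7, 129, 61 and 15.3 in PGC1α Null libraries, a log2 difference of 0.65. Prox1 was 20.3, 11.6, 8.51, 13.1 and 11.3 against 12.3, 12.8, 36.6 and 18.5, a difference of 0.51. Flt4 was 9.81, 5.98, 7.08, 4.27 and 20.9 against 17, 33.6, 51.7 and 77.3, a difference of 2.10. Only Flt4 of the 3 had an unadjusted p under 0.05 in limma, and the groups of all 3 overlapped. Set against Pecam1, Cdh5 and Kdr, the offsets of 29 of the other 32 genes overlapped between the groups. Those of Aqp1 (-2.42 to -1.64 in PGC1α Het, -1.58 to 0.19 in PGC1α Null) and S1pr1 (-2.15 to -1.32, -1.30 to -0.31) were higher in every PGC1α Null library, and that of Mmrn2 (-2.56 to -0.77, -3.41 to -2.73) was lower in every one. These offsets are a description with no test.

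Some lists of other cell types were also higher in the PGC1α Null libraries. The mural sum was 196 to 322 normalized counts in PGC1α Het and 366 to 674 in PGC1α Null, and the leukocyte sum 191 to 765 and 786 to 1513, neither overlapping. The macrophage sum (598 to 3929 and 2549 to 10899) and the fibroblast sum (2599 to 4151 and 2704 to 6525) overlapped. Their genes had median log2 differences of 1.32 and 1.26, each with 6 of 11 tested at an unadjusted p under 0.05, while the AT2 list had a median of -0.21 with 0 of 12. The platelet list was higher in 2 of 6 genes (median -0.10), the AT1 list in 5 of 10 (0.00055), the general epithelial list in 1 of 6 (-0.18) and the endothelial ligands and coreceptors in 4 of 10 (-0.05). Of the 44 other endothelial genes 39 were tested, and 33 were higher and 6 lower, by a median of 0.74. The part of these other cell types in the endothelial values was not tested.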

How the data were processed

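Endothelial genes were read in RNA-seq libraries of sorted tdTomato-positive lung tumor cells. The deposited values are a signal: normalized counts per gene that the authors made with Salmon and DESeq2 (GRCm38, per the labels; versions, annotation, and strand setting are not given in the sources used here). Low values were whole multiples of 1 step in only 10.6% to 41.4% (tolerance 0.01), so reads could not be recovered and depth is known only as normalized totals. Their own DESeq2 comparisons were not used.

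Values were log2-transformed with a pseudocount of 1 and genes with a mean of at least 10 were fitted with limma 3.58.1 in R 4.3.3 (trend), Benjamini-Hochberg adjusted over all genes, threshold 0.05. All 14 libraries of the first table shared each fit: by genotype alone for the pooled comparison, additive for time, and by genotype within week otherwise. The 9 PGC1α libraries had their own. Fold changes are on the log2(value + 1) scale and understate those of low genes. Single genes were also tested by two-sided exact permutation on log2 values, which cannot go below 0.333 at 2 or 12 weeks. The fit was also run on simulated data, but the outcome is not given here and no conclusion is drawn from it. Animals and tumors were the study's independent replicates, so p-values measure the spread between animals. In the pooled fit that spread also holds the differences between weeks and virus titres. At 2 weeks the BRAF V600E group holds 1 library, so the spread is taken from the other groups as well.

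The 35 genes and the marker lists were chosen with earlier results of these data known. Values in every library are given for 20 genes listed by role, with the 3 largest and 3 smallest differences of the pooled, 6 week and PGC1α comparisons, and a few others were named after their values were seen. 6 of the 35 (Egfl7, Eng, Nos3, Prox1, Ramp2 and Sox17) share exon bases with another gene in GENCODE vM21. Alternatives were a pseudocount of 4, a minimum mean of 40 or none, quantile normalization, week, sex or replicate number in the fit, and leaving out each library.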

Additional observations from a re-analysis of the deposited data

Results flagged for a closer look

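Of 105 sets of 4 to 10 libraries examined, 15 held a value set apart from its group by more than Dixon's 95% limit, which chance gives in about 1 of 20 sets. BRAF V600E/PI3Kα H1047R 6 week replicate 1 gave 8 of these, being above the other 3 libraries of its group in Cldn5 (1061 normalized counts against 180.4 to 225), Flt1 (14606 against 4159 to 4823), Sox17 (1359 against 349 to 404), Aqp1 (4989 against 890.3 to 1125) and Ednrb (6265 against 1410.3 to 1657). It was also above them in Vwf (1846 against 989 to 1098), Flt4 (3096 against 557 to 721) and the mean log2 level of all 35 genes (11.98 against 9.68 to 10.04). These are 1 library counted many times, not separate findings.

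Tmem100 was 71.9 normalized counts in BRAF V600E/PI3Kα H1047R 12 week replicate 1, against 1593 to 10610.5 in the other 7 libraries of that genotype. In PGC1α Het replicate 5, Kdr was 149 (others 34.6 to 51.6) and Tmem100 94.3 (others 12.3 to 18.8). Car4 was 10.1 in PGC1α Het replicate 3 (others 30.5 to 46.6). In PGC1α Null replicate 1, Calcrl was 264 (others 883 to 900.4) and Tmem100 32.9 (others 116 to 139). Gpihbp1 was 2.41 in PGC1α Null replicate 4 (others 12.1 to 14.7).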

How the results depend on the processing

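Few libraries per week limit most comparisons, and depth is known only as normalized totals. No endothelial gene passed an adjusted p of 0.05 under any alternative but 1: at 2 weeks 0 to 3 passed as each library was left out, the 3 where 1.53% of all genes did. Genes at an unadjusted p under 0.05, of 35, as each library was left out, numbered 2 to 11 over all weeks (lowest without BRAF V600E 6 week replicate 1 or 12 week replicate 2, highest without BRAF V600E 6 week replicate 3), 16 to 31 at 2 weeks (lowest when replicate 1 of 2 weeks with PI3Kα H1047R was left out), 1 to 8 at 12 weeks (without BRAF V600E 12 week replicate 2 the 1 was lower and Vwf no longer passed), 0 to 2 for 6 against 2 weeks, 0 to 19 for 12 against 6 weeks, and 5 to 26 and 0 to 3 for the interactions. The share of all genes at that threshold, in either direction, moved too. Over all weeks it was 5.36% and 5.42% in the fits with 2 genes and 7.97% in that with 11. For 12 against 6 weeks it was 8.07% in the fit with 19. The median log2 difference of the 35 ran from 0.56 to 1.09 over all weeks, -0.33 to 0.62 at 6 weeks and -1.01 to 1.35 at 12 weeks. It ran from -0.97 to 0.42 for 6 against 2 weeks, and from -1.31 to 1.22 for the later interaction. In the PGC1α comparison, among the 31 genes that passed the filter, 4 of them only through the PGC1α Null libraries, the count at an unadjusted p under 0.05 was 24 in full, all higher, against 2.66% of all genes higher, and 22 to 25 as each library was left out, with a median of 1.62 to 2.06. In the comparisons over all weeks and of PGC1α, single genes kept their sign except Tmem100 over all weeks, which ran from -0.28 (without the BRAF V600E library of 2 weeks) to 0.84 (12 week replicate 1 with PI3Kα H1047R left out) as each library was left out, and was -0.00874 with week as a factor and 1.01 without both 12 week BRAF V600E/PI3Kα H1047R libraries. With sex as a factor 1 gene had an unadjusted p under 0.05 over all weeks, and the later interaction had a median of 0.046. The single gene of 12 against 6 weeks became 0 with no filter, with sex, and without both 12 week BRAF V600E/PI3Kα H1047R libraries, an alternative chosen after seeing the data. The causes were not tested.

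Replicate numbers did not pair the samples: correlations of same-numbered deviations were -0.284 to -0.014 at 6 weeks, -0.146 at 12 weeks and -0.467 to 0.211 in the PGC1α table. With the replicate block 1 gene had an unadjusted p under 0.05 over all weeks, 0 for 12 against 6 weeks and 10 for the interaction of 6 and 2 weeks, and Tmem100 was -0.081.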
